A study of Homo sapiens with 6 samples.

Results

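The genes described here encode the enzymes that hydroxylate and crosslink collagen, namely the lysyl oxidases LOX, LOXL1, LOXL2, LOXL3 and LOXL4, the lysyl hydroxylases PLOD1, PLOD2 and PLOD3, and the prolyl 4-hydroxylase alpha subunits P4HA1 and P4HA2. They were taken by symbol from the table of expression values, in which all 10 were found among 25545 genes. RNA-seq was performed on BT-549, a human TNBC (triple-negative breast cancer) line with mesenchymal features. Cells were transfected with a control siRNA (BT-549/CsiRNA, 3 libraries) or with an siRNA against the lncRNA NEAT1 (BT-549/NEAT1siRNA, 3 libraries), and the labels give 48 h between transfection and RNA isolation for both groups. NEAT1 is the architectural RNA of paraspeckles. All the libraries come from 1 cell line, and the labels name a single NEAT1siRNA. Titles of both groups carry "tet", while the treatment given for both is siRNA transfection only. The cells were grown in triplicate, and nothing states that the triplicates were separate experiments, so that p-values measure the spread between these cultures.

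Collagen chains are modified in the endoplasmic reticulum before they fold into a triple helix. Prolyl 4-hydroxylase, a tetramer of catalytic alpha subunits (P4HA1, P4HA2 or P4HA3) with the P4HB protein, makes the 4-hydroxyproline that stabilizes the helix, and the PLOD enzymes hydroxylate lysines that later carry sugars or crosslinks. Outside the cell, the copper-dependent lysyl oxidases convert lysines and hydroxylysines of collagen, and lysines of elastin, to reactive aldehydes that join neighbouring molecules. In breast tumours this crosslinking is known for stiffening the matrix, and LOX, PLOD2, P4HA1 and P4HA2 are known targets of hypoxia-inducible factors (HIF), which bind the core letters ACGTG or GCGTG of the hypoxia response element.

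The promoters of the enzymes are shown because they differ in matches to ACGTG, a core of the HIF motif. RefSeq sequence of GRCh38.p14, from 250 bases before to 50 after an annotated start, was used for 9 enzymes and 12 windows, and LOXL2 was not searched. Of the HIF cores, ACGTG was searched on both strands and stands in capitals, which read CACGT where it lies on the opposite strand. GCGTG was not searched and is not marked. The LOX window shown is chr5:122078210-122078509, that of PLOD2 is chr3:146161135-146161434 and that of P4HA1 is chr10:73096817-73097116, all on the minus strand, while that of LOXL1 is chr15:73926212-73926511 on the plus strand. Each is printed 5′ to 3′ along its gene.
LOX: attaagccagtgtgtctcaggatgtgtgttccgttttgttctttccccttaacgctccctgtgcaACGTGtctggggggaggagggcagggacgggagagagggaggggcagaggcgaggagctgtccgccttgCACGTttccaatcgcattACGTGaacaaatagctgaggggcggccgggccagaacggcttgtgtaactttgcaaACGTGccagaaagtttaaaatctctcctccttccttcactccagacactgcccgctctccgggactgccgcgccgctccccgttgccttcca
PLOD2: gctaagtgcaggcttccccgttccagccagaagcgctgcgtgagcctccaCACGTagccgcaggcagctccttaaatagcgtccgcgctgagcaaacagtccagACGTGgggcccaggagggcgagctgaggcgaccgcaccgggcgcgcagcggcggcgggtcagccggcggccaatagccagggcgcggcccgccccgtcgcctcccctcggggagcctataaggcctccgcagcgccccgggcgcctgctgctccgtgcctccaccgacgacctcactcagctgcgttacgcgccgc
P4HA1: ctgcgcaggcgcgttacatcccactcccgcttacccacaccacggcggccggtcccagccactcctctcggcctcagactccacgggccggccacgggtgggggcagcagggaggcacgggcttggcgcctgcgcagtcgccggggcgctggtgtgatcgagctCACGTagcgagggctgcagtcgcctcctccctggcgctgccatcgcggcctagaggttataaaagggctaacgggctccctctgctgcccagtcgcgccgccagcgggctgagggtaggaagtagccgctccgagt
LOXL1: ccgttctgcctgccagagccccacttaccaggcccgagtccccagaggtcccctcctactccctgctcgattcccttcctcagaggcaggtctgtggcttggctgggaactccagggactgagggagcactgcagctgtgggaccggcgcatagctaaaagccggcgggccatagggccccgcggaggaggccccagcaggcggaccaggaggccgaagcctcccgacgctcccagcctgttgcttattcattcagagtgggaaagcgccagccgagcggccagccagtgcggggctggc
The LOX window held 4 matches, that of PLOD2 held 2 and that of P4HA1 held 1. Overlapping windows at 2 further LOX starts held 1 match each, which is the same site. The LOXL1 window held no ACGTG, nor did the windows of LOXL3, LOXL4, PLOD1, PLOD3 and P4HA2. ACGTG was found in 21.4% of 35116 promoter windows of the same length. The E-box CACGTG, which contains ACGTG, was found in 7.26% of all windows and in 0 of the 12 windows of the enzymes. The matches are a description of these letters, and binding was not measured.

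NEAT1 was examined first as a check of the labels. Its TPM (a level corrected for gene length and for the total of the library) was 13.4, 7.68 and 10.8 in the CsiRNA libraries and 4.36, 2.96 and 2.73 in the NEAT1siRNA libraries. The groups did not overlap, and NEAT1 fell by 1.41 on the log2(TPM + 1) scale (SE 0.14, limma adjusted p = 1.21e-07). In bulk cultures, fewer expressing cells and less RNA per cell cannot be told apart, here or for the enzymes. Recovered reads ranged from 15787538 to 20340102 per library. Of the mesenchymal markers VIM, FN1, CDH2 and ZEB1, all 4 were expressed. FN1 and CDH2 were lower with NEAT1siRNA (log2 fold changes of -0.47 and -0.34, limma adjusted p = 0.00116 and 0.0186). VIM and ZEB1 did not pass the threshold (-0.15 and -0.023, limma adjusted p = 0.243 and 0.916). Of all genes tested, 8.98% were called lower at an adjusted p under 0.05. These marker calls were not followed over other settings of the fit. None of the luminal (ESR1, PGR, EPCAM, CDH1, GATA3), leukocyte (PTPRC, CD3E, CD14), endothelial (PECAM1, VWF, CDH5) and fibroblast (PDGFRA, PDGFRB, DCN, LUM) markers reached a mean of 1 TPM, and ESR1, CD3E, VWF and CDH5 were listed at 0 in every library. The libraries of 1 group differed with base composition. Over 10424 genes, the rank correlation of transcript GC content with the deviation from the group mean was taken in each library. It was -0.730 in NEAT1siRNA replicate 2, 0.677 in NEAT1siRNA replicate 1 and 0.135 in NEAT1siRNA replicate 3. In the CsiRNA libraries it ran from -0.340 to 0.471. NEAT1siRNA replicate 2 thus stood high for AT-rich transcripts. Results that rest on replicate 2 are therefore given with and without it, and those of LOX and PLOD2 also without replicate 1.

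The enzyme messages of the 3 families were abundant with few exceptions, and none of those tested passed the threshold between the groups. LOXL2 and LOX had mean levels of 217 and 195 TPM over the 6 libraries and ranked 208 and 246 among the 10721 genes with a mean of at least 1 TPM. The order of the CsiRNA means was LOXL2, LOX, PLOD2, PLOD1, PLOD3, P4HA1, LOXL1, P4HA2, LOXL3 and LOXL4. In CsiRNA cells, the ranges of neighbours in this order overlapped for LOXL3 and LOXL4. In NEAT1siRNA cells, those of LOXL2 and LOX overlapped as well, since LOX lay above LOXL2 in replicate 2. Filtering on the mean of all 6 libraries left 8 enzymes for the test.

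**Figure D1:**
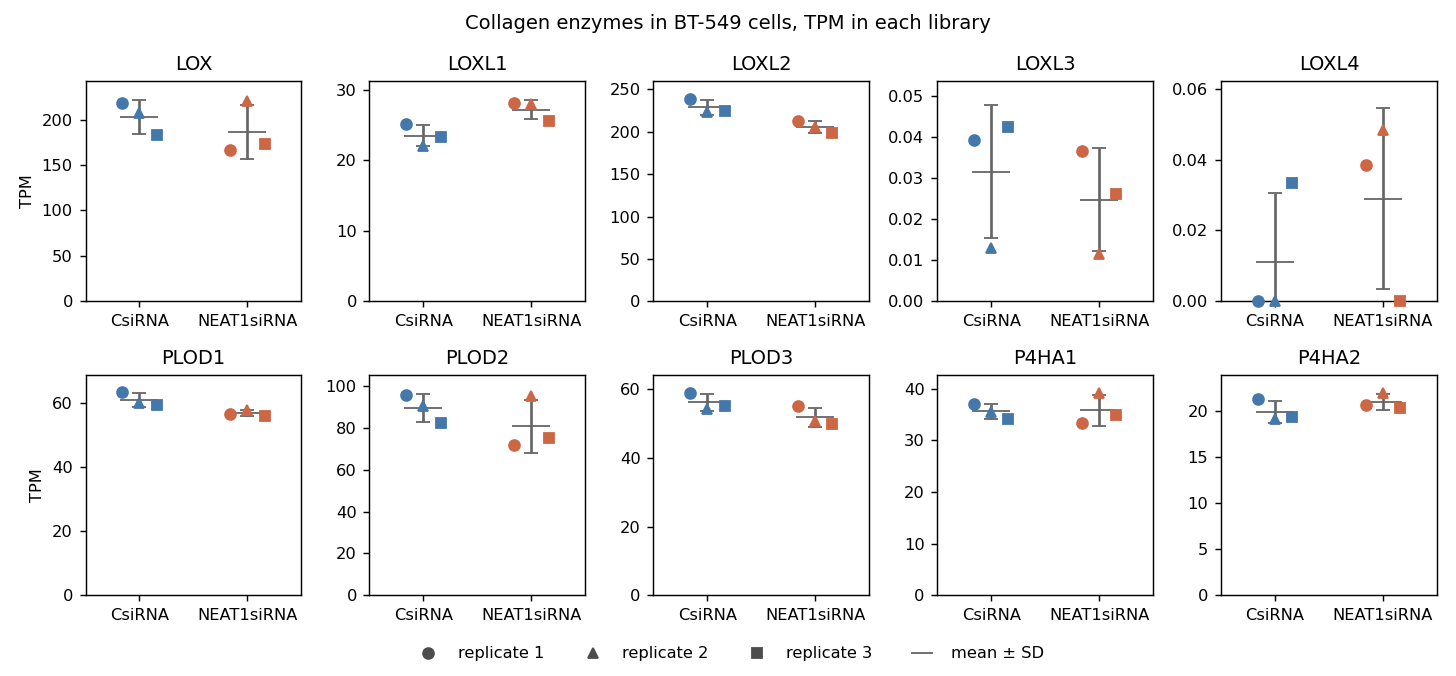
TPM of each enzyme (vertical axes, each starting at 0) in the 3 CsiRNA libraries (blue) and the 3 NEAT1siRNA libraries (red), with replicates 1, 2 and 3 as circles, triangles and squares and the group mean ± SD as grey bars. LOXL1 is higher and LOXL2 and PLOD1 are lower in every NEAT1siRNA library, and for LOX, PLOD2 and P4HA1 the triangle of NEAT1siRNA replicate 2 stands above its group.

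After NEAT1 silencing, 0 of the 8 tested enzymes passed the threshold (adjusted p under 0.05), compared with 14.0% of all genes tested. Over all genes, 4.99% were called higher and 8.98% lower. At an unadjusted p under 0.05 there was 1 enzyme, LOXL1, beside 2942 of the 10721 genes. With voom on recovered reads, the count-based test, LOXL1 was the 1 enzyme called, beside 2485 genes. The median log2 fold change of the 8 enzymes was -0.11, with 3 values above 0 and 5 below. Over all genes tested the median was -0.044, with 4214 above 0 and 6507 below. All of LOXL1's values in NEAT1siRNA cells lay above the CsiRNA values, as for 11.0% of genes, and those of 2 enzymes (LOXL2 and PLOD1) lay below, as for 19.3% of genes. For the other 5 the groups overlapped.

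LOX, the founding lysyl oxidase, lies at chr5:122063195-122078413 on the minus strand (GENCODE annotation of GRCh38, used for all gene positions given here). LOX was at 219, 208 and 183 TPM in CsiRNA cells and at 166, 221 and 173 TPM in NEAT1siRNA cells. NEAT1siRNA replicate 2 held the highest value of all 6 libraries, and the other NEAT1siRNA values lay below every CsiRNA value. The means were 203 ± 18.3 and 187 ± 29.5 TPM (SD, n = 3 each), and the log2 fold change was -0.13 (95% interval -0.33 to 0.078, limma adjusted p = 0.444). Without NEAT1siRNA replicate 2, it was -0.25 (interval -0.43 to -0.079), with an adjusted p of 0.0274. In that fit 1590 of 10721 genes were called lower, and the median over all genes was -0.082, against -0.044 with all libraries. With all libraries kept and each centred on its median, the log2 fold change of LOX was -0.071 (adjusted p = 0.581). Without NEAT1siRNA replicate 1, which deviated with GC content in the opposite direction, it was -0.052 (adjusted p = 0.812). After removal of a GC and length trend from every library, which keeps replicate 2, it was -0.16 (interval -0.32 to -0.0039, adjusted p = 0.137). Over the 17 alternative fits the log2 fold change of LOX ran from -0.25 to -0.052 and its adjusted p from 0.0274 to 0.812.

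LOXL1, a lysyl oxidase known for its part in elastic fibre maintenance, lies at chr15:73925989-73952137 on the plus strand. It was at 25.1, 22.1 and 23.4 TPM in CsiRNA cells and at 28.1, 28.0 and 25.6 TPM in NEAT1siRNA cells. Each NEAT1siRNA value exceeded each CsiRNA value, and the closest pair was CsiRNA replicate 1 (25.1) and NEAT1siRNA replicate 3 (25.6). The means were 23.5 ± 1.51 and 27.2 ± 1.40 TPM (SD, n = 3 each), and LOXL1 had a log2 fold change of 0.20 (SE 0.092, interval 0.014 to 0.39, limma adjusted p = 0.147). The call differed between fits. The adjusted p was 0.0232 with quantile normalization, 0.0114 with centring on the median, 0.0264 with 4 abundant short RNAs left out and 0.0106 with voom. In those fits the median log2 fold change over all genes lay between -0.018 and 0.013. With the GC and length trend removed the adjusted p was 0.174, but that fit kept the median at -0.044, as in the main fit. Both corrections together were not tested. Over all 17 alternative fits the log2 fold change of LOXL1 ran from 0.16 to 0.26, and the adjusted p from 0.0106 to 0.470. LOXL1 has the highest GC content of the tested enzymes (67.0%, against a median of 47.3% over the tested genes).

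The short RNAs named above (RN7SK, RN7SL1, RN7SL2 and RPPH1) held 64.4% to 68.1% of all TPM but only 2.30% to 3.01% of recovered reads, and TPM values of all other genes are scaled against that share. The antisense lncRNA LOXL1-AS1, at chr15:73908071-73928248 on the minus strand, overlaps LOXL1 by 2260 bases. LOXL1-AS1 was at 7.02, 7.54 and 6.70 TPM in CsiRNA cells and at 6.34, 6.86 and 6.05 TPM in NEAT1siRNA cells. Those groups overlapped and the log2 fold change was -0.13 (limma adjusted p = 0.418). The library kit keeps the strand of the RNA, but whether the counting used it is not given in the sources used here, and reads of the shared bases cannot be assigned with certainty.

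LOXL2, a lysyl oxidase with scavenger receptor domains that acts on basement membrane collagen, was the most abundant of the 10 enzymes in the CsiRNA group. LOXL2 lies at chr8:23296897-23425328 on the minus strand. It was at 239, 223 and 225 TPM in CsiRNA cells and at 212, 206 and 199 TPM in NEAT1siRNA cells. The NEAT1siRNA values were all lower, with means of 229 ± 8.52 and 206 ± 6.65 TPM (SD, n = 3 each). The log2 fold change of LOXL2 was -0.15 (SE 0.082, interval -0.32 to 0.016), and the adjusted p of 0.232 in limma did not pass. Over the 17 alternatives it ran from -0.18 to -0.097, with adjusted p from 0.0978 to 0.533. LOXL2 shares 39546 bases with ENTPD4 on the same strand, and ENTPD4 had a mean of 14.3 TPM, so reads of overlapping exons may be split between them.

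LOXL3 and LOXL4, paralogs that share the scavenger receptor domains of LOXL2, were barely detected. LOXL3 had 3, 1 and 4 recovered reads in the CsiRNA libraries and 3, 1 and 2 in the NEAT1siRNA libraries, with TPM from 0.0115 to 0.0426. LOXL4 had 0, 0 and 3 reads against 3, 4 and 0, with at most 0.0484 TPM. Both lay around the limit of 3 reads that a count of 0 allows, so no fold change is given. In the fit without a filter on TPM, which included both genes, 0 of the 10 enzymes passed the threshold. A difference in LOXL3 or LOXL4 was not detectable at this depth.

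The composition of the lysyl oxidase pool was compared because the enzymes carry out the same reaction and TPM is per length. The summed TPM of the LOX family was 482, 453 and 431 in CsiRNA cells and 407, 454 and 398 in NEAT1siRNA cells, which overlapped. LOXL1 supplied 5.21%, 4.88% and 5.43% of this sum in CsiRNA cells and 6.91%, 6.16% and 6.45% in NEAT1siRNA cells. The shares did not overlap and differed by 1.33 percentage points, or by 1.13 to 1.51 with any 1 library left out. A share within a library does not depend on the short RNAs, but these shares were not corrected for GC content. Transcript GC content is 67.0% for LOXL1 and 39.6% for LOX. Within the NEAT1siRNA group the LOXL1 share was highest in replicate 1 and lowest in replicate 2. How often shares do not overlap in other families was not counted. The ratio of LOXL1 to LOXL2 was 0.105, 0.0991 and 0.104 against 0.133, 0.136 and 0.129. This ratio could not overlap, since LOXL1 was higher and LOXL2 lower in every NEAT1siRNA library, so it adds nothing to their levels. The ratio of LOXL1 to LOX overlapped, since CsiRNA replicate 3 (0.128) exceeded NEAT1siRNA replicate 2 (0.127). LOX supplied 42.4% to 45.9% of the sum in CsiRNA cells and 40.9% to 48.6% in NEAT1siRNA cells, and LOXL2 49.3% to 52.1% and 45.3% to 52.2%. No test was made on shares or ratios, since the members were chosen with results known.

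**Figure D2:**
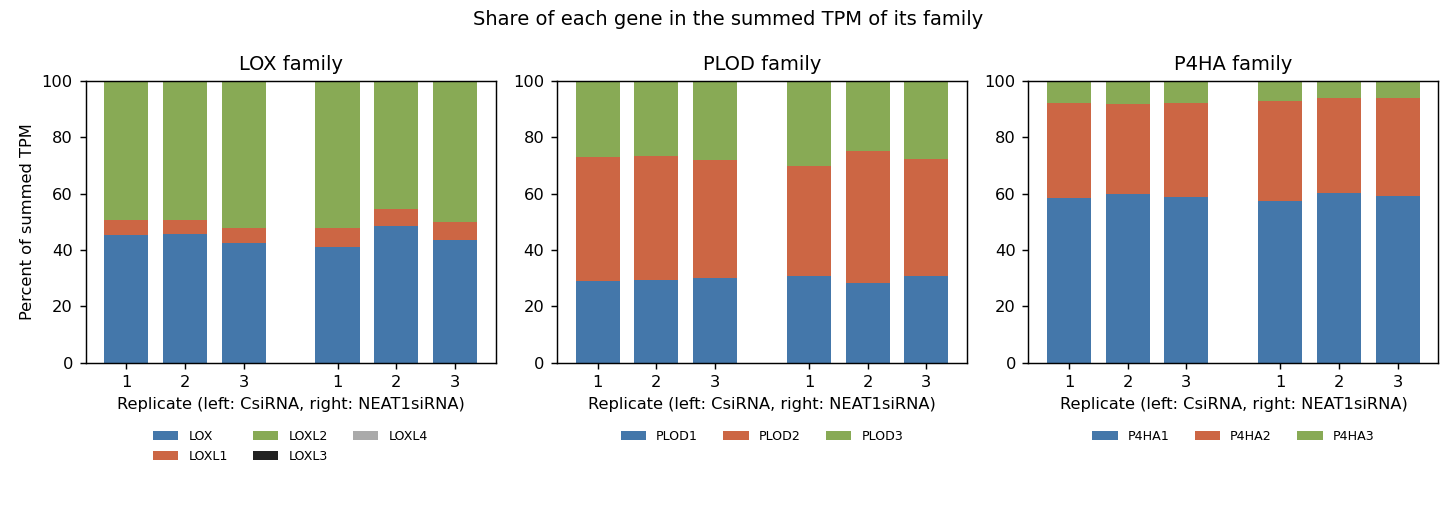
Percent of the summed TPM of the LOX, PLOD and P4HA families (vertical axis) held by each gene in each library, with CsiRNA replicates on the left and NEAT1siRNA replicates on the right of each panel. LOX and LOXL2 make up most of the first family, the LOXL1 band is wider in each NEAT1siRNA library (6.16% to 6.91%) than in each CsiRNA library (4.88% to 5.43%), and LOXL3 and LOXL4 are too small to be seen.

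Of the lysyl hydroxylases, PLOD1 modifies lysines of the helix, PLOD2 is the hydroxylase of the telopeptides that gives hydroxylysine-derived crosslinks, and PLOD3 also transfers sugars. PLOD1 lies at chr1:11934205-11975538 on the plus strand. It was at 63.4, 60.0 and 59.5 TPM in CsiRNA cells and at 56.6, 57.9 and 56.0 TPM in NEAT1siRNA cells. The NEAT1siRNA values were all lower, but by a log2 fold change of only -0.099 (interval -0.28 to 0.079, limma adjusted p = 0.499). Over the 17 alternative fits the log2 fold change of PLOD1 ran from -0.12 to -0.042, the latter with each library centred on its median. PLOD3, at chr7:101205977-101218420 on the minus strand, was at 59.0, 54.3 and 55.3 TPM and at 55.1, 50.8 and 49.95 TPM. The groups of PLOD3 overlapped, and its log2 fold change was -0.11 (interval -0.29 to 0.070, adjusted p = 0.446). For PLOD3 the alternatives ran from -0.15 to -0.055, the latter again with centring.

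PLOD2, at chr3:146035139-146163725 on the minus strand, had the library pattern of LOX. PLOD2 was at 95.6, 90.4 and 82.2 TPM in CsiRNA cells and at 71.9, 95.4 and 75.1 TPM in NEAT1siRNA cells. NEAT1siRNA replicate 2 lay among the CsiRNA values, and the other NEAT1siRNA values lay below them. The log2 fold change of PLOD2 was -0.15 (interval -0.36 to 0.056, limma adjusted p = 0.352). Without NEAT1siRNA replicate 2 it was -0.28 (interval -0.45 to -0.099), with an adjusted p of 0.0165, beside 1590 of 10721 genes called lower. With all libraries kept and each centred on its median, the log2 fold change of PLOD2 was -0.095 (adjusted p = 0.433). Without NEAT1siRNA replicate 1 it was -0.075 (adjusted p = 0.726). With the GC and length trend removed it was -0.20 (interval -0.36 to -0.040, adjusted p = 0.0595). Over the 17 alternative fits the log2 fold change of PLOD2 ran from -0.28 to -0.075 and its adjusted p from 0.0165 to 0.726. The share of PLOD2 in the PLOD sum was 43.9%, 44.2% and 41.7% in CsiRNA cells and 39.2%, 46.7% and 41.5% in NEAT1siRNA cells, which overlapped. The shares of PLOD1 and PLOD3 overlapped as well.

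Of the prolyl 4-hydroxylase alpha subunits, P4HA1, the major subunit in most cells, lies at chr10:73007217-73096974 on the minus strand and was at 37.1, 35.5 and 34.2 TPM in CsiRNA cells and at 33.3, 39.2 and 34.9 TPM in NEAT1siRNA cells. P4HA1 had both its highest and its lowest value in the NEAT1siRNA group. Its log2 fold change was 0.0061 (interval -0.18 to 0.20, limma adjusted p = 0.978), -0.059 without NEAT1siRNA replicate 2, -0.021 without CsiRNA replicate 3 and -0.033 with the GC and length trend removed. P4HA2, at chr5:132190147-132295315 on the minus strand, was at 21.3, 19.1 and 19.4 TPM and at 20.6, 22.0 and 20.3 TPM. The groups overlapped, with a log2 fold change of 0.071 (interval -0.12 to 0.26, adjusted p = 0.669). The antisense gene P4HA2-AS1 was listed at 0 in every library.

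Within the P4HA family, the minor subunit P4HA3 was at 4.89, 4.87 and 4.58 TPM in CsiRNA cells and at 4.07, 3.93 and 3.62 TPM in NEAT1siRNA cells. P4HA3 did not pass the threshold (log2 fold change -0.25, limma adjusted p = 0.0801), and over its alternatives the adjusted p ran from 0.0411 to 0.269. It supplied 7.72%, 8.18% and 7.86% of the family sum against 7.01%, 6.04% and 6.14%, and P4HA2 supplied 33.7%, 32.1% and 33.4% against 35.6%, 33.8% and 34.5%. Neither set of shares overlapped between the groups. Shares of a family sum to a fixed total and that of P4HA1 differed by only -0.039 percentage points, so these are not separate observations. The TPM of P4HA2 itself overlapped, and how often shares do not overlap in other families was not counted. P4HA1 held 57.4% to 60.2% of the sum in all libraries.

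**Figure D3:**
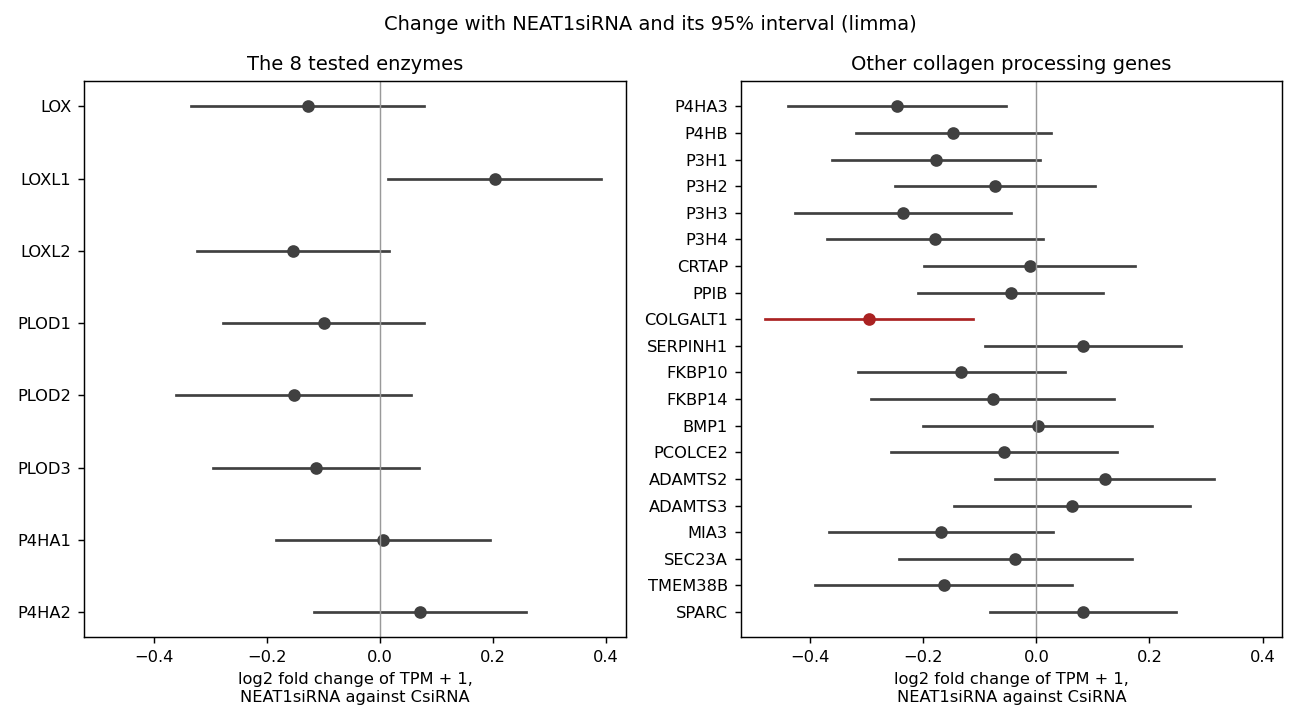
Log2 fold change of TPM + 1, NEAT1siRNA against CsiRNA (horizontal axis), with its 95% interval from limma for the 8 tested enzymes (left) and the 20 tested genes of the wider collagen processing list (right). Red marks the gene past the threshold, COLGALT1 at -0.30, and the interval of LOXL1 alone among the enzymes lies above 0.

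LOX, PLOD2 and P4HA1 were high in the NEAT1siRNA library that stood high for AT-rich transcripts. Their transcripts have the lowest GC content of the 8 (39.6%, 37.7% and 39.7%), while those of LOXL2, PLOD1, PLOD3 and LOXL1 range from 57.5% to 67.0% and P4HA2 lies at 45.0%. On the log2(TPM + 1) scale, NEAT1siRNA replicate 2 exceeded NEAT1siRNA replicate 1 by 0.40 for LOX, 0.40 for PLOD2 and 0.23 for P4HA1. It differed by 0.089 for P4HA2, 0.034 for PLOD1, -0.0068 for LOXL1, -0.046 for LOXL2 and -0.12 for PLOD3. Across the 8 enzymes, Pearson's r of this difference with GC content was -0.881 and Spearman's rho was -0.857. Over 10424 genes they were -0.697 and -0.738. These points share 2 libraries and genes are not independent replicates, so they are a description. The coefficients of variation of LOX and PLOD2 were 15.8% and 15.7% in the NEAT1siRNA group and 9.01% and 7.57% in the CsiRNA group.

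**Figure D4:**
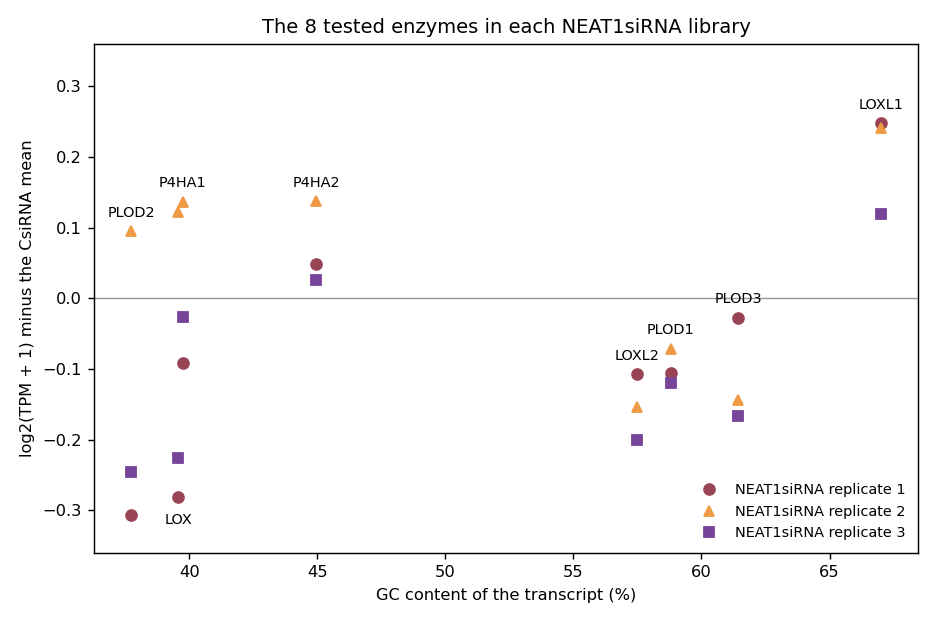
Difference of log2(TPM + 1) from the CsiRNA mean (vertical axis) against the GC content of the transcript in percent (horizontal axis) for the 8 tested enzymes in each NEAT1siRNA library. At GC contents under 40% replicate 2 (triangles) lies above 0 and the other 2 libraries lie below, and for the 4 enzymes above 55% the 3 libraries lie on the same side of 0.

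Of the other genes that act on collagen, 20 of 25 listed were tested, and 1 passed the threshold, in the direction of lower levels, beside 8.98% of all genes called lower and 14.0% called in either direction. It was COLGALT1, which adds galactose to hydroxylysine. COLGALT1 was at 113, 104 and 95.8 TPM in CsiRNA cells and at 85.9, 87.3 and 80.7 TPM in NEAT1siRNA cells, without overlap. Its log2 fold change was -0.30 (SE 0.089, limma adjusted p = 0.0273). The call was lost without CsiRNA replicate 1 (adjusted p = 0.178), CsiRNA replicate 2 (0.0944) or NEAT1siRNA replicate 3 (0.135), and without a filter on TPM (0.0894), while with the GC and length trend removed the adjusted p was 0.00731. Over all alternatives it ran from 0.00222 to 0.178. The median log2 fold change of the 20 was -0.075, with 5 above 0 and 15 below, against -0.044 over all genes tested, with 4214 above 0 and 6507 below. Chosen after their values were seen, the P4HB subunit of prolyl 4-hydroxylase had a log2 fold change of -0.15 (adjusted p = 0.269), the collagen prolyl 3-hydroxylase P3H1 had -0.18 (0.199), the chaperone of lysyl hydroxylase 2 FKBP10 had -0.13 (0.357) and the collagen chaperone SERPINH1 had 0.083 (0.576).

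Among the substrates, 9 of 11 were tested and 2 passed the threshold, 1 higher and 1 lower, beside 4.99% and 8.98% of all genes tested. COL3A1, the chain of type III collagen, was at 23.9, 21.7 and 22.1 TPM in CsiRNA cells and at 26.4, 32.0 and 26.7 TPM in NEAT1siRNA cells, with a log2 fold change of 0.31 (limma adjusted p = 0.0298). COL5A1, a chain of the type V collagen that regulates fibril diameter, was at 43.8, 39.2 and 44.3 TPM and at 37.1, 33.6 and 31.5 TPM, with a log2 fold change of -0.31 (adjusted p = 0.0273). The call on COL3A1 was lost when any library other than NEAT1siRNA replicate 1 was left out (adjusted p from 0.0501 to 0.115) and without a filter (0.123). That on COL5A1 was lost without CsiRNA replicate 1 (0.123), CsiRNA replicate 3 (0.0670) or NEAT1siRNA replicate 3 (0.155), without a filter (0.102) and with quantile normalization (0.0525). The lowest adjusted p over the alternatives was 9.14e-05 for COL3A1 and 0.00271 for COL5A1. The chains of type I collagen, named after their values were seen, did not pass, with log2 fold changes of -0.24 for COL1A1 (adjusted p = 0.0845) and -0.18 for COL1A2 (0.172). The median over the 9 substrates was -0.11, with 1 value above 0 and 8 below, against -0.044 over all genes tested. ELN and COL6A3 had means below 1 TPM.

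Since LOX, PLOD2, P4HA1 and P4HA2 are HIF targets, other HIF targets were read from the same fit. Their list was chosen with earlier results of these data known, so the count is a description. Of 20 listed, 16 were tested and 8 passed the threshold, beside 14.0% of all genes tested. Of these 5 were higher and 3 lower, beside 4.99% and 8.98% of all genes, and the median log2 fold change of the 16 was 0.040, against -0.044 over all genes. The count was 4 to 7 with any 1 library left out and 2 without a filter on TPM, where BNIP3L, BNIP3 and SLC2A1 had adjusted p of 0.0519, 0.0516 and 0.0519. The mitophagy receptors BNIP3L (0.63, limma adjusted p = 0.000154) and BNIP3 (0.53, 0.000633) were higher. BNIP3L was at 44.0, 44.8 and 41.6 TPM in CsiRNA cells and at 57.8, 81.3 and 65.9 TPM in NEAT1siRNA cells. The vasodilator peptide gene ADM (-0.50, adjusted p = 0.000795) and the glucose transporter gene SLC2A1 (-0.51, 0.000935) were lower. ADM was at 5.91, 5.66 and 5.54 TPM in CsiRNA cells and at 3.54, 4.14 and 3.61 TPM in NEAT1siRNA cells. The log2 fold changes of LOX, PLOD2, P4HA1 and P4HA2 ran from -0.15 to 0.071 with all libraries. Without NEAT1siRNA replicate 2 those of LOX (-0.25) and PLOD2 (-0.28) passed the threshold, with limma adjusted p of 0.0274 and 0.0165. In that fit 1590 of 10721 genes were called lower. Without NEAT1siRNA replicate 1 the log2 fold changes of LOX and PLOD2 were -0.052 and -0.075, with adjusted p of 0.812 and 0.726. A difference between these enzymes and the other HIF targets was not tested.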

How the data were processed

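Expression of 10 collagen enzymes was compared between 3 CsiRNA and 3 NEAT1siRNA libraries of BT-549 cells, grouped by their titles. The authors prepared TruSeq stranded mRNA libraries and aligned the reads with STAR to GRCh38. Their counting program is not given in the sources used here. They deposited TPM for each gene and library. Another deposited table holds the comparison of the authors with DESeq2, of which the mean normalized count (a signal pooled from the 6 libraries) was used only to recover reads, and its fold changes and p-values were not used. There were 0 columns of per-sample values without a sample.

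TPM were transformed to log2(TPM + 1), and the 10721 genes with a mean of at least 1 TPM were fitted in R 4.3.3 by limma 3.58.1 (lmFit, then eBayes with a mean-variance trend). Fold changes are on this scale, which understates changes of low genes. Tests were two-sided, with Benjamini-Hochberg adjustment over all genes tested and a threshold of 0.05. Recovered reads came within 0.05 of a whole number for 99.8% of values at mean normalized counts under 5 and for 98.3% between 5 and 50, but for 62.1% and 16.7% in higher classes, so reads of abundant genes are approximate. Of the symbols, 22278 matched the annotation as current, 783 through older symbols and 2484 did not, and 97.2% of tested genes had GC content and length.

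The members and lists were chosen with earlier results of these data known. Genes named are the members, NEAT1, antisense partners, substrates past the threshold, other collagen processing genes past the threshold and the 4 HIF targets with the smallest p. Cell type markers, short RNAs and P4HA3 (for the family shares) were also named from lists, and P4HB, P3H1, FKBP10, SERPINH1, COL1A1 and COL1A2 after their values were seen. Alternatives were another pseudocount, other filters on TPM, quantile normalization, centring, omission of short RNAs, eBayes without trend, a replicate block, each library left out, voom on recovered reads and removal of a GC and length trend (splines with 4 degrees of freedom). The result of 1 listed marker gene is not reported here. The main fit was also run on simulated reads, which held no GC differences between libraries, so that run says nothing about such differences. Python 3.11.15, pandas 2.3.3 and matplotlib 3.10.9 were used otherwise.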

Additional observations from a re-analysis of the deposited data

How the results depend on the processing

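The count of 0 enzymes past the threshold was 1 (LOXL1, higher) with quantile normalization, centring on the median, short RNAs left out and voom, and 1 (PLOD2, lower) with the GC and length trend removed together with the replicate block. It ranged from 0 to 2 with each library left out. The log2 fold change of P4HA1 ranged from -0.059 (NEAT1siRNA replicate 2 omitted) to 0.055 with each library left out, was -0.021 when CsiRNA replicate 3 was omitted, and was -0.033 after removal of the trend, with or without the block. The other 7 tested enzymes kept their direction in all 17 alternatives. Over all genes, the 1498 calls became 505 without a filter, 2485 with voom, 2381 with the trend removed and 2653 with trend and block, and 759 to 2083 with 1 library left out. Of all calls 35.7% were higher, but 1082 against 1109 lower with quantile normalization, 1158 against 954 with centring and 1157 against 1328 with voom. The higher and lower calls were 376 and 383 without CsiRNA replicate 1, 493 and 1590 without NEAT1siRNA replicate 2, and 413 and 425 without NEAT1siRNA replicate 3. Without a filter, 242 were higher and 263 lower. The count over other collagen processing genes was 0 without a filter, 2 with short RNAs left out, 3 with the trend removed, 4 with trend and block, and 0 to 1 with a library left out. That over HIF targets was 2 without a filter and 4 to 7 with a library left out. The cause of these changes was not tested.

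Same-numbered libraries had correlations of deviations of -0.030, 0.251 and -0.107, and those of other pairs ran from -0.397 to 0.399. The deviations varied with GC content, with rank correlations from -0.730 to 0.677 over the libraries and of 0.135 in NEAT1siRNA replicate 3. Whether replicate numbers pair the samples therefore cannot be settled from them. With the replicate block, 0 enzymes, 1640 of all genes, 1 other processing gene and 8 HIF targets passed. LOXL3 and LOXL4, with at most 4 recovered reads in a library, were limited by depth.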
